A study of Mus musculus and Homo sapiens with 41 samples.

Results

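The AP-1 family with Jund was followed in granulocyte-monocyte progenitors (GMPs) and in the 416b cell line, which are 2 settings in which the amount of PLZF, the zinc finger protein encoded by Zbtb16, was changed. The members are 10 genes, Jun, Junb, Jund, Fos, Fosb, Fosl1, Fosl2, Atf3, Batf and Maff, taken by gene symbol out of the 53756 genes listed for GMPs and the 13238 listed for 416b cells. All 10 are listed for GMPs and 9 for 416b cells, and Atf3 was not analysed in 416b cells. The set was chosen by the difference in normalised counts between WT and Zbtb16lu/lu GMPs, in which Jund was among the higher genes, so the GMP differences of the members are a description and carry no test.

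AP-1 is a dimer of basic leucine zipper proteins. Jun proteins pair with each other or with Fos proteins and bind short DNA sites, the TRE (TGACTCA) and the related CRE (TGACGTCA), and members of the Atf, Batf and small Maf groups join these dimers or bind sites of their own. Many members are immediate early genes, which are transcribed within minutes of a stimulus or a stress, and in blood cells AP-1 takes part in the differentiation of monocytes and macrophages. JunB and JunD are known as Jun proteins that can restrain growth, and Fos, FosB and c-Jun as the fast responders.

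GMPs are bone marrow progenitors of granulocytes and monocytes. They came from lethally irradiated C57BL/6 Cd45-1 hosts that had received total bone marrow of WT or of Zbtb16lu/lu C57BL/6 Cd45-2 mice, the lu/lu allele being an inactivating mutation of Zbtb16 carried by all cells of the graft, and they were sorted as lineage-negative, Cd45+, c-Kit+, Sca-1-, Cd34+, FcγR+ cells. The study's antibody list holds one against Cd45-2, the allele of the donors. The age of the donors is not given in the sources used here for these RNA samples. The table holds 2 libraries per genotype, and nothing in it ties a library to a given mouse or pool, so the spread between libraries may be partly technical. 416b cells, a Cd34+ mouse myeloid line, had been transduced with a PLZF-Flag lentivirus or with the Empty vector, and 1 library was made of each. Values are normalised counts, that is, reads per gene divided by a size factor of the library. In bulk samples such as these, fewer cells that express a gene and less RNA per cell cannot be told apart.

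Zbtb16 itself was at 705 and 828 normalised counts in WT library 1 and 2 and at 269 and 369 in Zbtb16lu/lu library 1 and 2, and it went from 382 to 2541 between Empty vector and PLZF-Flag. The libraries thus follow their labels. The GMP libraries summed to between 38562940 and 40130730 normalised counts, and the 416b libraries held 54530162 (Empty vector) and 19995393 (PLZF-Flag) reads on the listed genes. Markers of GMPs such as Mpo, Elane, Ctsg and Kit were high in all 4 GMP libraries. In 416b cells (Empty vector and PLZF-Flag) Cd34 was at 11100 and 8820, Kit at 6430 and 7270, Fcgr3 at 3110 and 3090, and the granule genes Ctsg at 2320 and 1680 and Prtn3 at 470 and 435, whereas the granule gene Mpo was at 12.1 and 3.30 and Elane was not analysed. The GMP markers Irf8 and Ms4a3 were at 432 and 461 and at 49.0 and 51.2. Of the erythroid and megakaryocyte markers, Itga2b was at 22400 and 22100, Hbb-bt at 15900 and 19300 and Pf4 at 5770 and 5030. Others were low, such as Gata1 (15.1 and 43.0) and Hba-a1 (2.42 and 3.3). WT library 2 stood apart from the other 3 GMP libraries, as its correlations with them across the log2 values of 20531 genes were 0.972 to 0.973 against 0.986 to 0.990 among the others. Between the WT libraries 11.9% of the tested genes differed at least 2-fold, and between the Zbtb16lu/lu libraries 4.14%.

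Upstream stretches are shown for 1 member of each group (Jun, Fos and Maff), since these genes are themselves known targets of CRE and AP-1 binding proteins. The stretches lie in GRCm38.p6, the patch release of the mm10 assembly to which the reads had been mapped, and are printed 5′ to 3′ on the strand of the gene up to the base before the RefSeq transcript start. Capitals mark matches to TGACG, TGACGTCA or TGACNTCA on either strand (each TGACGTCA also holds TGACG) and to TATAAA on the strand of the gene.
Jun, chr4:95052223-95052342, minus strand: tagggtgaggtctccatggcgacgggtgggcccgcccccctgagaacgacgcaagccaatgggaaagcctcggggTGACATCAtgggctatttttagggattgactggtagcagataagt
Fos, chr12:85473770-85473889, plus strand: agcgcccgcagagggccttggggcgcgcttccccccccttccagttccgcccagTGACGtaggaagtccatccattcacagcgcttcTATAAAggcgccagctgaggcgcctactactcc
Maff, chr15:79347400-79347519, plus strand: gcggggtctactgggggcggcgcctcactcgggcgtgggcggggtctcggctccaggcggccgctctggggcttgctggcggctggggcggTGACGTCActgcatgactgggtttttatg
The Jun stretch held TGACATCA 45 bases before the start, and Maff had the full CRE 29 bases before this start, 1 of the 3 that RefSeq gives for it. Fos had the core TGACG at 129 and 66 bases (the first lies outside the printed stretch), together with TATAAA 33 bases before the start. The searched window was the 250 bases before each start. Of 32851 such RefSeq windows of mouse genes, 1.55% held TGACGTCA, 7.49% TGACNTCA, 17.8% TGACG, 7.59% TATAAA and 4.46% the TRE TGACTCA. RefSeq windows were found for 9 of the 10 members (11 windows), and Fosl1 is named only. The TRE was in none of these 11 windows. The matches are a description of the sequence.

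The searched windows of the other Jun genes differed. Junb had only the core TGACG, 106 bases before its start. Jund had no match at its RefSeq start, which lies 1210 bases upstream of the start that GENCODE M21 gives, and before the GENCODE start it held the full CRE TGACGTCA at 214 bases and CGTCA, the core on the other strand, at 97 bases. Batf (98 bases) and Fosb (60 bases) had the core as well, and Atf3 had it on the other strand 7 bases before its start. Another start of Maff had TGACATCA 45 bases upstream, and its remaining start had no match. The window of Fosl2 had no match either.

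Among the Jun genes, Jund and Junb had higher values in both Zbtb16lu/lu libraries than in either WT library, and Jun did not. Jund (ENSMUSG00000071076, chr8:70698949-70700616, plus strand, 1 exon) encodes JunD. It was at 719 and 595 normalised counts in WT library 1 and 2 and at 1407 and 1326 in Zbtb16lu/lu library 1 and 2, with means of 657 ± 87.6 and 1367 ± 57.2 (SD, n = 2 each). Both Zbtb16lu/lu libraries lay above both WT libraries, and the libraries of a genotype were close together. The log2 difference, Zbtb16lu/lu minus WT, was 1.06 (standard error, SE, 0.15), or 2.09-fold, on the log2(normalised count + 1) scale that is used for all GMP differences. Leaving out any 1 library gave 0.93 to 1.20. In the pair of libraries whose column names carry the same date (WT library 1 and Zbtb16lu/lu library 2) the difference was 0.88, and in the other pair it was 1.24.

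Junb (ENSMUSG00000052837, chr8:84974484-84978718, minus strand) encodes JunB, which restrains the expansion of myeloid progenitors. It was at 1107 and 644 normalised counts in the WT libraries and at 1611 and 1411 in the Zbtb16lu/lu libraries, means of 875 ± 327 and 1511 ± 142 (SD, n = 2 each). The groups did not overlap, but the WT libraries themselves were 0.78 apart on the log2 scale. The log2 difference was 0.84 (SE 0.23). It was 0.45 without WT library 2 and 1.23 without WT library 1, so its size depended on which WT library served as the reference.

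Jun (ENSMUSG00000052684, chr4:95049034-95052222, minus strand, 1 exon) encodes c-Jun. It was at 4292 and 7147 normalised counts in the WT libraries and at 6295 and 7599 in the Zbtb16lu/lu libraries. The Zbtb16lu/lu library 1 value lay between the WT values. The log2 difference was 0.32 (SE 0.22), from 0.82 in the pair with the same date to -0.18 in the other pair.

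Of the Fos genes, Fosl2 alone had libraries that did not overlap between genotypes, by a margin no larger than the spread of its Zbtb16lu/lu libraries. Fos (chr12:85473890-85477273) was at 4281 and 11500 normalised counts in WT and at 6289 and 7170 in Zbtb16lu/lu GMPs, a log2 difference of -0.06 (SE 0.36). Fosb (chr7:19302696-19310051) was at 3197 and 7647 in WT and at 3904 and 5095 in Zbtb16lu/lu, a log2 difference of -0.15 (SE 0.34). For both genes the WT libraries were the lowest and the highest of the 4. Leaving out WT library 1 gave -0.78 for Fos and leaving out WT library 2 gave 0.65, so the sign of the Fos difference changed with the library left out. Fosl2 (chr5:32135801-32157842), which encodes Fra-2, was at 1321 and 1337 in WT and at 1416 and 1631 in Zbtb16lu/lu, a log2 difference of 0.19 (SE 0.13) with no overlap. Fosl1 (chr19:5447547-5455946), which encodes Fra-1, was at 25.9 and 33.8 in WT and at 31.1 and 27.8 in Zbtb16lu/lu, and had the lowest mean per kilobase of the members in GMPs, overlapping with Atf3.

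The other bZIP members differed among themselves. Maff (chr15:79346621-79359076) encodes a small Maf protein without a transactivation domain. It was at 121 and 85.8 normalised counts in WT and at 155 and 177 in Zbtb16lu/lu, a log2 difference of 0.69 (SE 0.28) with no overlap between genotypes. Atf3 (chr1:191170296-191218039), a stress-induced gene, was at 19.9 and 89.7 in WT and at 59.2 and 72.0 in Zbtb16lu/lu. Its log2 difference of 0.61 (SE 0.62) went from -0.45 without WT library 1 to 1.67 without WT library 2. Batf (chr12:85686669-85709087), which pairs with Jun proteins and with Irf factors in lymphoid and myeloid cells, was at 1017 and 618 in WT and at 717 and 698 in Zbtb16lu/lu. Both Zbtb16lu/lu values of Batf lay between the WT values, and its log2 difference was -0.16 (SE 0.22).

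**Figure D1:**
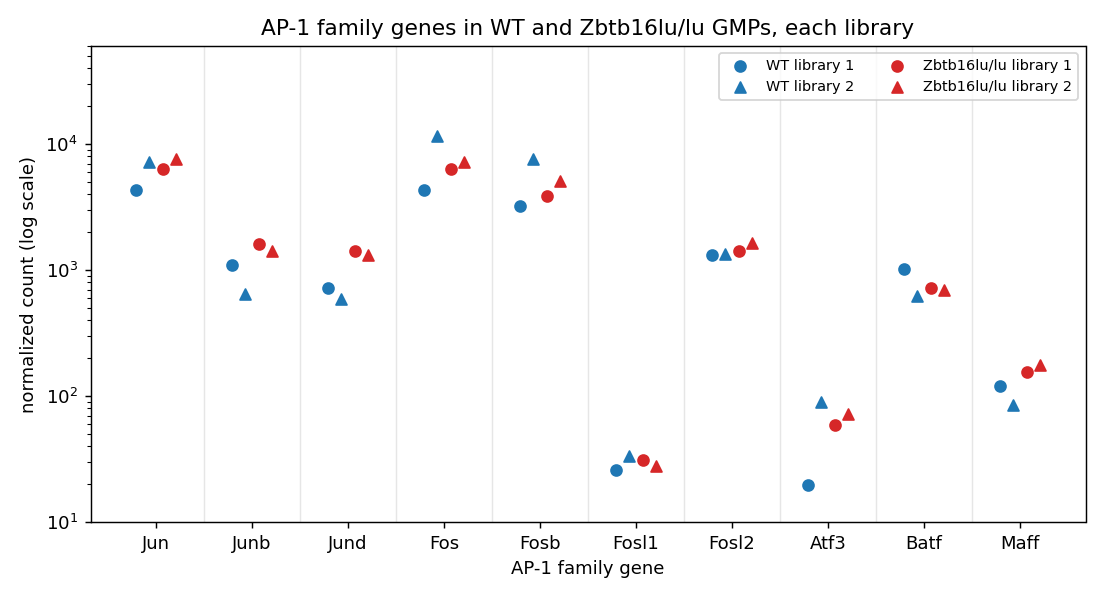
Normalised counts (log axis) of the 10 AP-1 family genes in each of the 4 GMP libraries, WT in blue and Zbtb16lu/lu in red. For Jund, Junb, Maff and Fosl2 both red points lie above both blue points, and for Fos, Fosb, Fosl1, Atf3 and Batf the blue points are the lowest and the highest.

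In all, 4 of the 10 members (Jund, Junb, Maff and Fosl2) had both Zbtb16lu/lu libraries above both WT libraries and 0 had both below. Across the 20531 genes tested, 21.7% had both Zbtb16lu/lu libraries above and 22.1% both below. The median log2 difference of the members was 0.26 against -0.01 over all tested genes. It was 0.61 in the pair of libraries with the same date and -0.02 in the other pair. Across all genes, limma with Benjamini-Hochberg adjustment called 0 genes at an adjusted p under 0.08, which is 0% of those tested, and the smallest adjusted p was 0.299. The study itself reports genes both higher and lower in Zbtb16lu/lu GMPs at a false discovery rate of 8%. The count of 0 thus belongs to limma on the libraries used here. At an unadjusted p under 0.05, 1130 genes were higher (5.50%) and 898 lower (4.37%) in Zbtb16lu/lu. As the members were picked with these differences known, nothing is read from their share.

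The differences of Jund and Junb went together with a trend in exon GC content across the whole transcriptome. Exons of Jund are 67.2% G or C, more than in 99.6% of the tested genes with an annotation, and those of Junb 62.6%, at percentile 98.5. The median log2 difference between genotypes rose step by step with GC content, from -0.22 for the 1419 tested genes with up to 40% GC to 0.06 for 5146 genes between 50% and 55%, 0.34 for 576 genes between 60% and 65%, and 0.74 for 150 genes above 65%. After the trend with GC content and exon length was removed in each library, the log2 difference of Jund was 0.41 in place of 1.06 and that of Junb 0.41 in place of 0.84. Maff, at 57.2% GC, had 0.49 in place of 0.69, and Fosl2, at 52.1%, had 0.14 in place of 0.19. Thus Jund had the largest difference of the 10 as measured, whereas Atf3 (0.55) and Maff (0.49) had the largest after the trend was removed, and Batf (-0.32) and Fosb (-0.30) the smallest. Whether the GC trend arose in the cells or in the libraries was not tested.

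**Figure D2:**
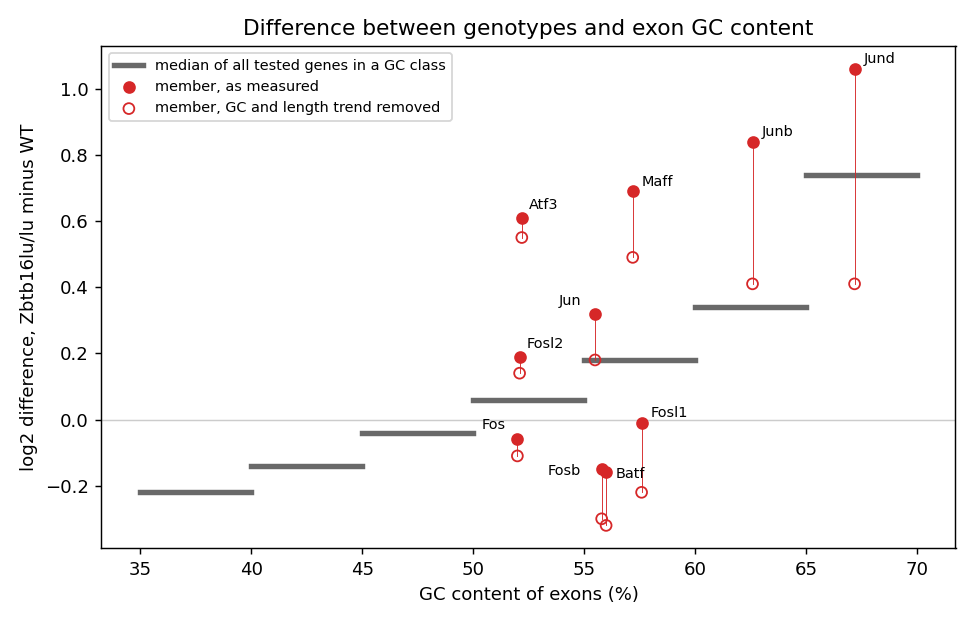
Log2 difference between Zbtb16lu/lu and WT GMPs against exon GC content (percent) for the 10 members as measured (filled) and after removal of the GC and length trend (open), with the median of all tested genes in each GC class as grey bars (the outer bars stand for all genes up to 40% and above 65%). The medians climb from -0.22 to 0.74, and Jund drops from 1.06 to 0.41.

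Jund also shares its position with another annotated gene. Gm11175, on the minus strand at chr8:70699162-70700080, lies wholly within the single exon of Jund and overlaps it by 919 bases. It was at 416 and 315 normalised counts in WT and at 925 and 836 in Zbtb16lu/lu, a log2 difference of 1.28, so it moved with Jund. Jun and the antisense gene Junos share 689 bases. Junos was at 403 and 616 in WT and at 759 and 778 in Zbtb16lu/lu, a log2 difference of 0.62 with no overlap between genotypes, whereas Jun overlapped (0.32). The GMP library kit keeps strand, but whether strand was used in counting is not given in the sources used here, so reads of Jund and Gm11175, or of Jun and Junos, cannot be told apart. Junb overlaps the end of Prdx2 by 351 bases, and Prdx2 was at 4497 and 4319 in WT and at 5093 and 4561 in Zbtb16lu/lu, a log2 difference of 0.13. Fosl1 overlaps Ccdc85b by 2767 bases, and Ccdc85b was at 75.6 and 55.9 in WT and at 115 and 72.0 in Zbtb16lu/lu. All these overlaps are counted over whole genes, introns included, so the overlap of exons can be smaller. Exons of Fosl1 hold only 2033 bases.

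Fos, Fosb, Atf3 and Jun were all higher in WT library 2 than in WT library 1. Fos and Fosb in WT library 2 lay above the other 3 libraries and in WT library 1 below them. For Jun, WT library 2 lay within the range of the Zbtb16lu/lu libraries and WT library 1 below it, and for Atf3 WT library 1 was the farther from them on the log2 scale. In WT library 2 Atf3 was 4.34-fold, Fos 2.69-fold, Fosb 2.39-fold and Jun 1.67-fold the value in WT library 1. Jund (0.828-fold), Maff (0.710-fold), Batf (0.608-fold) and Junb (0.582-fold) were lower there. Many of the immediate early genes outside AP-1 also differed between the WT libraries. Klf2 was at 202 and 1182 normalised counts in WT library 1 and 2 and at 349 and 319 in Zbtb16lu/lu. Klf6, a zinc finger factor of the same family, was at 1734 and 3426 against 1909 and 1899. Egr1, Egr2, Dusp1, Nr4a1, Btg2 and Zfp36 were likewise 1.56-fold to 2.41-fold higher in WT library 2 than in WT library 1, and in total 9 of the 13 tested genes of that list were higher there, with a median log2 difference of 0.98 against -0.01 over all tested genes. Between the Zbtb16lu/lu libraries the same genes differed by at most 0.48 on the log2 scale. Erythroid and megakaryocyte transcripts were also higher in WT library 2, and their sum was 2308, 5465, 3556 and 2077 in WT library 1 and 2 and Zbtb16lu/lu library 1 and 2. The part of these cells in the spread was not tested.

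**Figure D3:**
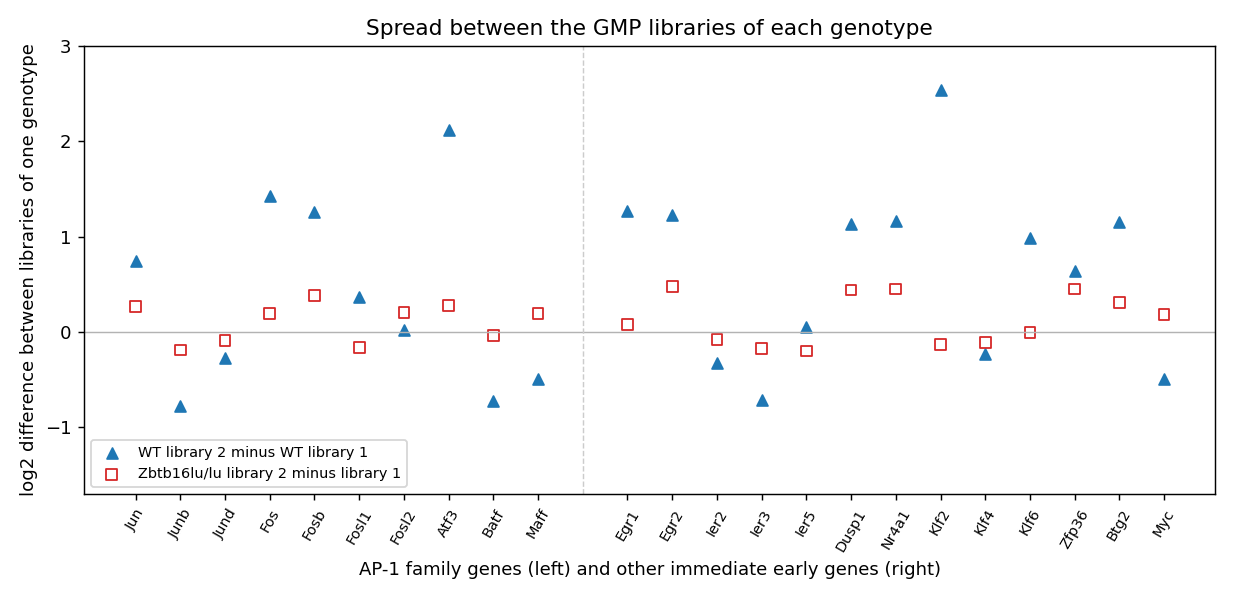
Log2 difference between the GMP libraries of a genotype for the 10 AP-1 family genes (left of the dashed line) and 13 other immediate early genes (right), WT library 2 minus 1 as blue triangles and Zbtb16lu/lu library 2 minus 1 as red squares. The WT values run from -0.78 (Junb) to 2.54 (Klf2), and the Zbtb16lu/lu values stay between -0.20 and 0.48.

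Of the immediate early genes outside AP-1, 1 of the 13 (Ier2) had both Zbtb16lu/lu libraries above both WT libraries, against 21.7% of all tested genes. Ier2 was at 1325 and 1053 normalised counts in WT and at 1963 and 1853 in Zbtb16lu/lu, a log2 difference of 0.69 (SE 0.15; limma adjusted p = 0.309) that was 0.35 after removal of the GC and length trend. Ier3 (376 and 230 against 392 and 349) overlapped. The median of the list was 0.06.

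Partners, upstream factors and targets of AP-1 were read from 5 further lists, and in each of them 0 genes passed the adjusted threshold in limma. At an unadjusted p under 0.05 in limma, 5.50% of all tested genes were higher and 4.37% lower. The lists together held 3 such genes that were higher and 2 that were lower. Of their 65 tested genes, 14 were higher with no overlap between genotypes (21.5%, against 21.7% of all tested genes) and 19 lower (29.2%, against 22.1%). Of 14 tested partner bZIP genes, 4 were higher and 4 lower with no overlap, with a median log2 difference of 0.09. Atf2, a CRE-binding partner of c-Jun, was at 2460 and 2571 in WT and at 2048 and 2016 in Zbtb16lu/lu, a log2 difference of -0.31 (limma adjusted p = 0.469) that was -0.07 after removal of the GC and length trend, and the small Maf gene Mafk was at 1351 and 936 against 1355 and 1357. Atf5 (0.43, and 0.11 after removal of the trend) had overlapping libraries, and Atf4, the integrated stress response factor, had a log2 difference of -0.15 (-0.32 after removal). Of 16 MAP kinase pathway genes, which phosphorylate Jun and Fos proteins or activate their kinases, 4 were higher and 6 lower, with a median of -0.07. Rps6ka3, the kinase Rsk2, was at 5396 and 4349 in WT and at 3520 and 2983 in Zbtb16lu/lu, a log2 difference of -0.58 (limma adjusted p = 0.370), and Map2k6 had -0.26. Map2k2 was at 3710 and 2703 against 3949 and 3976, a log2 difference of 0.32 that was 0.10 in the pair with the same date, 0.55 in the other pair and 0.14 after removal of the trend. Map3k1 had 0.23 with and without the trend.

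Of the 12 factors that drive Jun and Fos promoters, 3 were higher and 3 lower without overlap (21.7% and 22.1% of all tested genes), with a median of -0.07. Mkl1, a coactivator of Srf, had a log2 difference of 0.40 and Mef2d of 0.25, and the CRE-binding factors Creb1 and Atf1 had -0.23 and -0.21. After removal of the trend Mef2d had 0.12, Creb1 -0.02 and Atf1 -0.16. Of 7 tested regulators of Jun and Fos proteins, 0 were higher and 4 lower, with a median of -0.14. Cops5, also called Jab1, was at 4064 and 3683 in WT and at 3596 and 3155 in Zbtb16lu/lu, and Gsk3b had the same log2 difference of -0.20 (-0.14 for Cops5 and -0.12 for Gsk3b after removal of the trend). Men1, whose product menin binds JunD, was at 2900 and 2364 in WT and at 2759 and 2854 in Zbtb16lu/lu and overlapped. Of 16 tested AP-1 target genes, 3 were higher and 2 lower without overlap, with a median of 0.09. Vim, which encodes vimentin, was at 15718 and 16996 in WT and at 21916 and 19571 in Zbtb16lu/lu, a log2 difference of 0.34 (limma adjusted p = 0.450). The chemokine gene Cxcl2 (0.72) and the cyclin gene Ccnd1 (-0.23) overlapped, and the ferritin gene Fth1 had -0.18.

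Many markers of more mature myeloid cells also had higher values in Zbtb16lu/lu GMPs, although limma called 0 genes of the neutrophil or the monocyte and macrophage list at an adjusted p under 0.08 (7 and 6 genes were higher at an unadjusted p under 0.05, against 5.50% of all tested genes). The mature neutrophil list, 10 genes, had 7 genes with both Zbtb16lu/lu libraries above both WT libraries (21.7% of all tested genes) and a median log2 difference of 2.22. Its summed normalised counts were 13372, 5965, 20262 and 9923 in WT library 1 and 2 and Zbtb16lu/lu library 1 and 2, which overlapped. Ltf, the lactoferrin gene of secondary granules, was at 56.7 and 11.6 in WT and at 846 and 305 in Zbtb16lu/lu, and Camp had a log2 difference of 2.39, although the sort had removed lineage-positive cells. These differences were smaller in the pair of libraries with the same date than in the other pair, at 2.41 and 6.07 for Ltf, 0.40 and 4.37 for Camp and -0.64 and 1.22 for S100a8, and the median of the list for WT library 2 minus WT library 1 was -1.62 on the log2 scale. S100a8 (0.29) and Cxcr2 (0.21) overlapped, and Ly6g was at 2.98 to 4.82 in WT and 19.5 to 21.1 in Zbtb16lu/lu. Of 8 tested monocyte and macrophage markers, 7 were higher in both Zbtb16lu/lu libraries, with a median of 0.41 and sums of 43655, 52854, 65060 and 61516. Ly6c2, Ccr2, Ctss and Adgre1 had log2 differences of 0.38 to 0.52. Of 12 GMP markers, 5 were higher and 1 lower with no overlap (21.7% and 22.1% of all tested genes), with a median of 0.11. Among them Irf8 was at 9786 and 9305 in WT and at 14277 and 13887 in Zbtb16lu/lu. The granule genes Mpo (477326 and 483375 against 543288 and 552003) and Elane (37949 and 36604 against 47604 and 48674) were also higher. Prtn3, at 79932 and 52884 against 88798 and 82272, had a log2 difference of 0.39 that was 0.04 in the pair with the same date, 0.75 in the other pair and 0.04 after removal of the GC and length trend. Ms4a3 had -0.21 (-0.03 after removal), and Kit (-0.03) overlapped. Among lymphoid markers, Cd3e, Ms4a1 and Gzma were below 3 in every library. Klrb1c (1.99 and 0.964 in WT against 9.03 and 13.4), Cd79a (0.994 and 0.964 against 7.03 and 5.14) and Cd4 (3.98 and 4.82 against 9.03 and 9.25) were low but higher in both Zbtb16lu/lu libraries. Cd79b (0.18, and 0.08 after removal of the trend) and Nkg7 (-0.02) were high in all 4 libraries. The stem cell marker Hlf had a log2 difference of -0.20 (-0.11 after removal), and the 6 tested stem cell markers all overlapped. Of the erythroid and megakaryocyte markers, Hba-a1 (1.06), Hbb-bs (0.67) and Pf4 (-1.29) overlapped, and Gata1 was at 214 and 213 in WT and at 212 and 119 in Zbtb16lu/lu, so that its log2 difference of -0.42 came from Zbtb16lu/lu library 2. The part of such cells in the values of Jund, Junb, Maff and Fosl2 was not tested.

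The genes whose pattern was most like that of Jund were sought among 13825 other tested genes with a mean of at least 100, by the Euclidean distance between log2 values centred on each gene's mean over the 4 libraries. The 5 nearest were 9330160F10Rik (distance 0.0853), Gm23935 (0.111), Map1lc3a (0.164), Carns1 (0.187) and Kcnk12 (0.195). Gm23935 was at 883 and 791 normalised counts in WT and at 1822 and 1603 in Zbtb16lu/lu. Map1lc3a, which encodes the autophagy protein LC3A, was at 80.5 and 63.7 in WT and at 135 and 140 in Zbtb16lu/lu. Exon GC contents of the 5 were 54.2%, 73.7%, 63.6%, 58.1% and 69.4%. After the GC and length trend was removed, their log2 differences were 1.01 (9330160F10Rik), 0.03 (Gm23935), 0.47 (Map1lc3a), 0.70 (Carns1) and 0.14 (Kcnk12), so 3 of the 5 kept a larger difference than the 0.41 of Jund. The likeness rests on 4 libraries.

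Levels were compared between members per kilobase of exons. In GMPs Fos was highest, at 1820 to 4890 normalised counts per kilobase over the 4 libraries, followed by Jun at 1350 to 2380. Fosb (512 to 1220), Jund (357 to 844), Batf (440 to 724) and Junb (280 to 700) came next, and each of these overlapped its neighbour in the order, as Fos overlapped Jun. Fosl2 (136 to 168) lay below them without overlap and Maff (33.1 to 68.2) below Fosl2. Atf3 (9.23 to 41.6) overlapped Maff and Fosl1 (12.7 to 16.6). Fos in WT library 2 was at percentile 97.1 of the tested genes, and Jund was between percentiles 65.1 and 82.5 over the 4 libraries.

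In 416b cells the order was a different one, with Jund first. Jund was at 5020 normalised counts per kilobase in Empty vector and 5380 in PLZF-Flag, at percentiles 97.2 and 97.4 of the genes with a mean of at least 10. Junb followed at 1080 and 1100, then Jun (640 and 689), Batf (572 and 629) and Fosl1 (361 and 389). Fos, first in GMPs, was at 29.3 and 17.6, at percentiles 13.3 and 9.79, and Fosb was lowest at 11.8 and 10.6. Of the summed level per kilobase of the 3 Jun genes, Jund made up 74.5% in Empty vector and 75.0% in PLZF-Flag, against 19.1% and 12.4% in WT GMPs and 24.0% and 21.0% in Zbtb16lu/lu GMPs. Jun made up 56.1% to 77.9% of it in the GMP libraries. Of the 4 Fos genes, Fos itself made up 73.4% to 78.1% in the GMP libraries and Fosl1 73.7% and 75.6% in the 416b libraries. The tables were normalised separately and the libraries made with different kits, and the cells differ in being sorted from marrow or grown in culture, so only orders and shares within a library are set side by side. With the RefSeq transcript of Jund, 2878 bases in place of 1668, its mean in GMPs was 352 in place of 607 normalised counts per kilobase, below Junb, and it stayed first in 416b cells at 2910 and 3120.

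**Figure D4:**
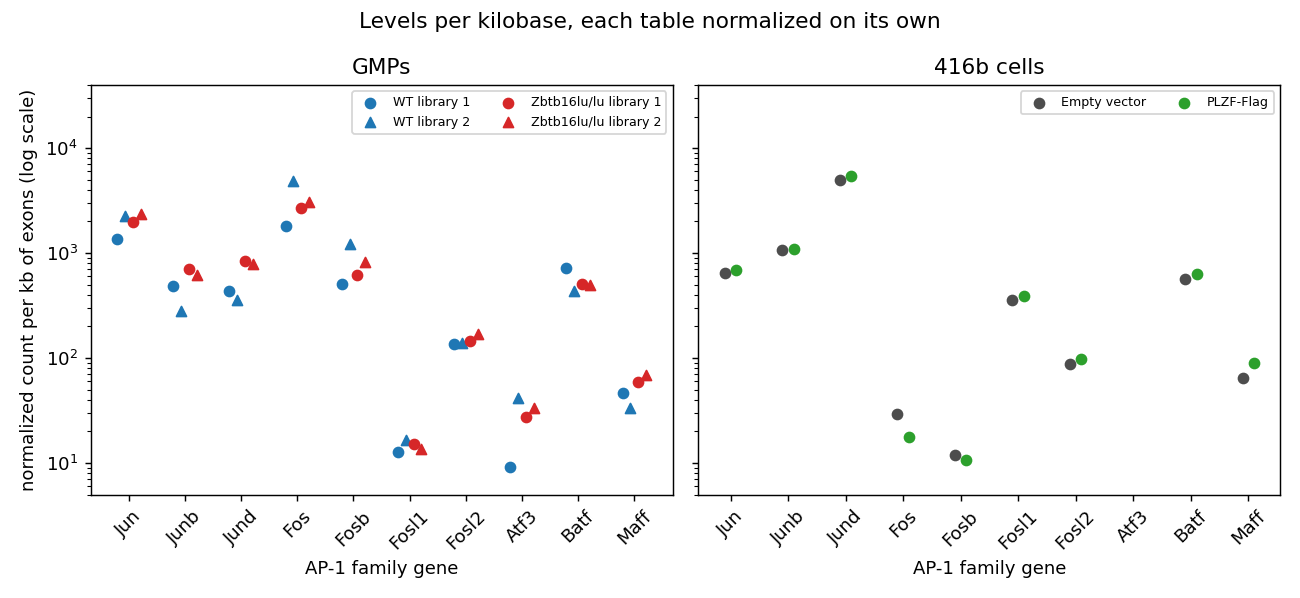
Normalised counts per kilobase of exons (log axis) of the members in the 4 GMP libraries (left) and in the 416b libraries (right), where Atf3 was not analysed. Fos and Jun lead in GMPs, and Jund leads in 416b cells at 5020 and 5380.

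In 416b cells none of the 9 members changed by as much as 2-fold between Empty vector and PLZF-Flag. Ratios are the log2 of PLZF-Flag over Empty vector after adding 1, each with a 95% interval (exact binomial, Clopper-Pearson) based on reads recovered from the normalised counts. Such intervals reflect nothing but counting error, and since each condition had 1 library there is no replicate check and no test. Over the 11836 genes with a mean of at least 10, 0.498% had a log2 ratio of at least 1 and 0.912% of at most -1, and the members had 0 of 9 in each direction. The interval lay above 0 for 16.1% of these genes and below 0 for 16.0%.

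Jund was at 8370 normalised counts (13831 reads) in Empty vector and 8966 (5426 reads) in PLZF-Flag, a log2 ratio of 0.10 (0.05 to 0.14). Junb was at 2489 and 2540, a ratio of 0.03 (-0.06 to 0.11), so a change of Junb was not detectable at this depth. Jun went from 2041 to 2198, a ratio of 0.11 (0.01 to 0.20). The Jun genes thus lay within 0.14 log2 units of no difference in the case of Jund and Junb and within 0.20 in the case of Jun, as far as counting error goes.

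Fos was at 69.0 normalised counts (114 reads) in Empty vector and 41.3 (25 reads) in PLZF-Flag, a log2 ratio of -0.73 (-1.43 to -0.11), lower than that of all but 2.05% of the genes. Fosb, at 73.8 and 66.1 (122 and 40 reads), had a ratio of -0.16 (-0.71 to 0.37). Fosl1 (734 and 790) had 0.11 (-0.05 to 0.26), Fosl2 (852 and 945) had 0.15 (0.01 to 0.29) and Batf (804 and 884) had 0.14 (-0.01 to 0.28). Maff was at 166 and 231, a ratio of 0.47 (0.16 to 0.76), the largest of the members. Its PLZF-Flag value did not come out as a whole number of reads, and its interval rests on the rounded number. In total the interval lay above 0 for 4 of the 9 members (Jun, Jund, Fosl2 and Maff), below 0 for Fos, and included 0 for 4, against 16.1% above and 16.0% below over all genes.

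**Figure D5:**
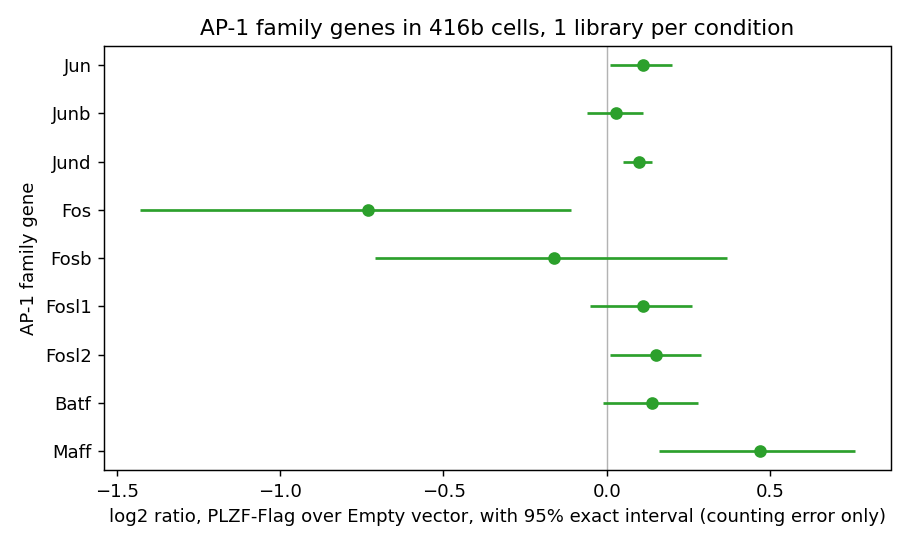
Log2 ratio of PLZF-Flag over Empty vector in 416b cells for the 9 members, with 95% exact intervals that cover counting error only. Fos lies at -0.73 and Maff at 0.47, and the others lie between -0.16 and 0.15.

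The related lists held 0 genes past a log2 ratio of 1 in either direction in 416b cells among those with a mean of at least 10, and their medians ran from -0.07 to 0.07. Of the 12 immediate early genes outside AP-1 that reached this mean, the interval lay above 0 for 2 and below 0 for 2, with Klf6 lower (1652 and 1305, a ratio of -0.34, -0.46 to -0.23) and Ier2 at 0.06 (-0.01 to 0.13). Over the 5 lists of partners, upstream factors and targets, 58 genes reached this mean, and the interval lay above 0 for 6 of them (10.3%, against 16.1% of all genes) and below 0 for 17 (29.3%, against 16.0%). Of the 12 partner bZIP genes it lay above 0 for 1 (Mafk) and below 0 for 5, among them Atf2 (2010 and 1759, a ratio of -0.19, -0.29 to -0.09) and Atf4 (12254 and 11613, a ratio of -0.08, -0.12 to -0.04). Rps6ka3 was at 5287 and 4860, a ratio of -0.12 (-0.18 to -0.06). Map3k1 was at 763 and 592, a ratio of -0.37 (-0.54 to -0.20), and Mafk at 2676 and 3029, a ratio of 0.18 (0.10 to 0.26). Men1 was at 2991 and 3431, a ratio of 0.20 (0.12 to 0.27).

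Set side by side, the values of the 9 members in the settings with less PLZF (Zbtb16lu/lu GMPs, log2 difference) and with more PLZF (PLZF-Flag 416b cells, log2 ratio) were 1.06 and 0.10 for Jund, 0.84 and 0.03 for Junb, 0.69 and 0.47 for Maff, 0.32 and 0.11 for Jun, 0.19 and 0.15 for Fosl2, -0.01 and 0.11 for Fosl1, -0.06 and -0.73 for Fos, -0.15 and -0.16 for Fosb, and -0.16 and 0.14 for Batf. Whether these responses differ was not tested, since the experiments share neither cells, kit nor replicate design.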

How the data were processed

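The RNA-seq of GMPs (2 libraries per genotype, under 1 sample entry each) and of 416b cells (1 library per condition) was analysed. The study's methods name 3 independent RNA extractions for GMPs, and 2 libraries per genotype are in the table used here. GMP libraries were made from ribosomal RNA depleted total RNA with a stranded kit, and 416b cDNA with a low-input SMART-Seq kit. Samples of other assays were not used here.

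Alignment to mm10 with Subread, gene counts with featureCounts (1.5.0 in the submitters' processing notes) and division by DESeq2 size factors had been done by the authors, so the signal values as deposited are normalised counts. Other deposited columns (the authors' means, log2 values and log2 fold changes, with p-values before and after adjustment) were not used. In the GMP libraries the value of 1 read was close to 1 (0.964 to 1.03), but the rule applied to recover reads did not accept every library. No count test was therefore run on the GMP values. For 416b cells, reads were recovered by dividing by the value of 1 read (0.605 and 1.65), and below 1000 reads 89.1% (Empty vector) and 87.1% (PLZF-Flag) of values were whole within 0.02 reads.

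GMP genes that reached 10 in 2 or more libraries (20531) were tested with limma 3.58.1 (trend) in R 4.3.3 on log2(value + 1), two-sided, with Benjamini-Hochberg adjustment and the 8% false discovery rate of the methods (threshold 0.08). On simulated data of this design (20531 genes), 152 of 200 genes changed 2-fold and 187 of 200 changed 4-fold were called. The simulation gave all genes and libraries a single spread, whereas in the real data WT library 2 stood apart. The share of real changes that the test would call was therefore not measured. Of symbols on more than 1 row, the row with the highest mean was kept. Gene models, lengths and GC content came from GENCODE M21 (GRCm38) and upstream sequence from RefSeq and the GRCm38.p6 genome. The GC and length trend was removed per library with splines of 5 degrees of freedom. edgeR 4.0.16 gave TMM factors only. Python 3.11.15, numpy 2.4.6, pandas 2.3.3 and scipy 1.17.1 were used.

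The members and gene lists were chosen with earlier results of these data known. Genes named beside the members are, from each list, those with the 2 largest and 2 smallest GMP differences among tested genes with a mean of at least 100, the 5 nearest to Jund, and Zbtb16. A gene that this rule names is not reported here. Other genes (Egr1, Egr2, Dusp1, Nr4a1, Btg2, Zfp36, Ly6g, Elane, Mpo, Ctsg, Cd34, Fcgr3, Itga2b, Hbb-bt, the overlapping genes and the lymphoid markers) were named after their values were seen. Alternatives were other pseudocounts, filters, scalings, a threshold of 0.05, no intensity trend, GC and length, pairs by date and leaving out each library.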

Additional observations from a re-analysis of the deposited data

How the results depend on the processing

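With all 4 libraries kept, 65 of 68 alternatives of pseudocount, filter, scaling, GC and length moved a member's GMP value by less than 1 SD between libraries of a genotype, and 3 moved it by more (Jund, Junb and Fosl1, after removal of the GC and length trend). Values with 1 library left out cannot move by more than this SD with 2 libraries per genotype, so they and the pairs of libraries are given as ranges. The sign for Jund, Junb, Maff and Fosl2 cannot change with the libraries chosen, as their genotypes do not overlap. The others changed sign in a pair of libraries or with 1 library left out: over all alternatives Jun ran from -0.18 to 0.82, Fos from -0.87 to 0.74, Fosb from -0.97 to 0.67, Atf3 from -0.59 to 1.80, Batf from -0.54 to 0.21 and Fosl1 from -0.22 to 0.18. The median member difference of 0.26 ran from 0.07 to 0.46 with 1 library left out, and was 0.61 in the pair with the same date and -0.02 in the other pair. The count of genes at a limma adjusted p under 0.08, 0 with all libraries and under each alternative of pseudocount, filter, scaling, threshold, intensity trend, GC and length, was 4659 without WT library 1, 2749 without WT library 2, 1 without Zbtb16lu/lu library 1 and 64 without Zbtb16lu/lu library 2, and that of genes in the related lists ran from 0 to 27. These fits take the spread from 1 genotype's pair alone, with 1 residual degree of freedom, and assume that the lone library varies like that pair. In 416b cells all 36 alternatives stayed within the counting intervals, and the related lists held 3 genes past a log2 ratio of 1 with no filter against 0. By longest transcript, or by the RefSeq transcript of Jund (chosen after seeing the data), 7 of the 10 members kept their place by level in GMPs. No paired analysis was possible because the library columns carry no replicate numbers, only dates, of which 1 is shared. Read numbers for the GMP libraries were not used, and with 2 libraries per genotype the groups of each value hold too few samples to look for outlying libraries by gene.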
